A study of Mus musculus with 5 samples.

Results

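The homeobox genes that pattern the pharyngeal arches were measured in pieces of pharyngeal tissue from E10.5 wild-type mice. They were Dlx1, Dlx2, Dlx3, Dlx5, Dlx6, Msx1, Msx2, Barx1 and Gsc, chosen by symbol, and every probe set annotated to exactly 1 of these genes was kept. This gave 11 probe sets for 9 genes, of 22626 probe sets and 12393 genes measured. Dlx3 and Msx1 had 2 probe sets each and the other genes 1. The study profiled 5 tissue isolates on Affymetrix Mouse Genome 430A arrays, all of 1 group, with no other genotype, treatment or stage to compare with. All embryos carried a mixed background of 129P2/OlaHsd, with 2 generations of crossing back to C57BL/6. The labels call the piece arch-containing in 1 field and second heart field-containing in another, and they do not say whether an isolate pooled embryos or whether isolates shared a litter. The starting amount was 10 ng of total RNA per isolate, amplified before labelling, so the spread between samples holds both biological and amplification differences.

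The arches are filled by cranial neural crest mesenchyme, and their upper to lower axis is set by homeodomain factors of the Dlx family. Dlx1 and Dlx2 are transcribed along most of the axis, Dlx5 and Dlx6 in its lower part, and Dlx3 nearest the lower tip. Endothelin 1 from the epithelium acts through its receptor on the crest and switches on Dlx5 and Dlx6, and these act on Hand2. Msx1 and Msx2 are homeodomain repressors that respond to BMP signals in the arch tips, Barx1 marks the proximal mesenchyme that forms molar teeth and joints, and Gsc (goosecoid) is needed for parts of the jaw and ear. Most vertebrate Dlx genes lie as neighbouring pairs. In the RefSeq table used here Dlx1 and Dlx2 were adjacent coding genes, as were Dlx5 and Dlx6, and Dlx3 lay beside Dlx4.

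The sequences upstream of the paralogs Dlx1 and Dlx2, and of Msx1 and Msx2, are shown as the related members for which the promoter table held both genes. Each is the 250 bases before the annotated start of the gene, from RefSeq (GRCm38.p6), read 5′ to 3′ on the strand of the gene. Capitals mark CCAAT, on either strand, and the homeodomain core TAATTA. Dlx1 is at chr2:71529195-71529444 (plus strand), Dlx2 at chr2:71546755-71547004 (minus), Msx1 at chr5:37824586-37824835 (minus) and Msx2 at chr13:53472781-53473030 (minus).
Dlx1: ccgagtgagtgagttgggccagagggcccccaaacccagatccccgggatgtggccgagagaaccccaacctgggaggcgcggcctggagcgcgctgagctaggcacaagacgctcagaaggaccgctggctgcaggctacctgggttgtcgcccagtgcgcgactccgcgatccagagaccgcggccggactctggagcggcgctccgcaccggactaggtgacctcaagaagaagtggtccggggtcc
Dlx2: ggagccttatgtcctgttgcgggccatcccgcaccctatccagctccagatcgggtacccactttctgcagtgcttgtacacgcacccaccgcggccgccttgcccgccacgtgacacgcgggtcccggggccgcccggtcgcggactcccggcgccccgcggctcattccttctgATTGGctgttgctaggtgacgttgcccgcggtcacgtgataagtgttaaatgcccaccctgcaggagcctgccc
Msx1: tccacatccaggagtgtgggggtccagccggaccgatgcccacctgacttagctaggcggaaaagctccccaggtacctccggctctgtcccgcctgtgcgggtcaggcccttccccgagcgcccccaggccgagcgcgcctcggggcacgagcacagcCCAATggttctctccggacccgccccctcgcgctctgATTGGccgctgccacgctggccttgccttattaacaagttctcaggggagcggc
Msx2: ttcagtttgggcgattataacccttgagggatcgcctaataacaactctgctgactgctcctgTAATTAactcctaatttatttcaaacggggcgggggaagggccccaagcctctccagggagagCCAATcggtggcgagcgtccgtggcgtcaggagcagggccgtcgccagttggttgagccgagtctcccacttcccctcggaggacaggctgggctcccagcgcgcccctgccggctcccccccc
Promoters were listed for 6 of the 9 genes, these 4 with Barx1 and Gsc. All 6 windows were rich in CpG dinucleotides, with 22 for Dlx1, 24 for Dlx2, 20 for Msx1, 16 for Msx2, 40 for Barx1 and 22 for Gsc, against a median of 6 over 32851 promoter windows of the same length. CCAAT stood in Dlx2 (1 match), Msx1 (2) and Msx2 (1), and in 33.8% of all windows. TAATTA, the same on both strands, stood in Msx2 alone among the 6, and in 4.84% of all windows. Such matches describe letters only.

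Each value below is a signal in the scaled units of the array, with 1 signal per probe set and sample. A background level was set on each array as the 95th percentile of 225 probe sets of 186 genes, nearly all of families such as odorant receptors and defensins, and lay at 18.2, 16.4, 19.7, 23.1 and 23.7 in replicates 1 to 5. A stricter level, which lets 28 probe sets of casein kinases and interferon receptors into the background, lay between 81.1 and 112. These 28 alone lift it that far, so a signal beneath the strict level is not thereby a background signal. A probe set was called when its log2 signal exceeded the level over the 5 samples at an adjusted p below 0.05 in limma, one-sided, with Benjamini-Hochberg adjustment over all 22626 probe sets. The excess is the mean log2 distance to the level, with its SE. Probe sets bind with different strength, so signals of different genes have no common scale, and a probe set without a call does not show that the transcript is absent. The whole piece was measured, so fewer cells that transcribe a gene and less RNA per cell cannot be told apart.

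Of the 9 genes, 5 were above background: Dlx1, Dlx2, Dlx3, Msx1 and Barx1. The same rule called 53.5% of all genes, so 5 of 9 (55.6%) was a share near that of any gene on the array. By probe set it was 5 of 11, against 49.6% of all probe sets. The median excess of the 11 probe sets was 0.34 log2 units and that of all probe sets 0.47. Dlx2 alone cleared the strict level, which 29.4% of all genes and 25.6% of all probe sets did, and it alone was called when the level was the 99th percentile of the background, where 40.3% of all genes were. The other 4 calls therefore rest on where the level is set.

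**Figure D1:**
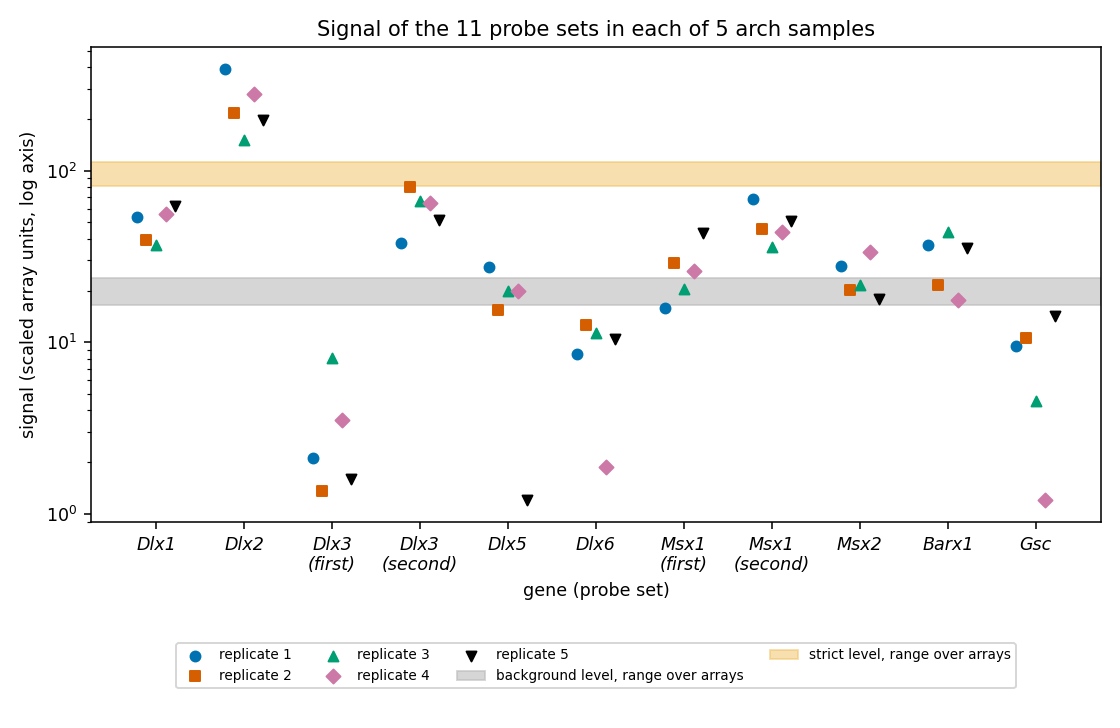
Signal (log axis) of the 11 probe sets in each of the 5 samples, with 1 marker per replicate. The grey and yellow bands are the ranges over arrays of the background level and of the strict level, and Dlx2 alone lies above both bands in all 5 samples, from 151 to 392.

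Dlx2, which acts with Dlx1 in the crest of the first and later arches, was the only member called at both levels. It gave 392, 217, 151, 281 and 197 in replicates 1 to 5, a mean of 247 ± 93.0 (SD, n = 5). All 5 samples lay above the background level and above the strict level. The excess was 3.55 ± 0.19 log2 units (adjusted p = 1.41e-17, limma), and 1.28 over the strict level. Its range was wide, with the highest sample 2.60 times the lowest. The SD of its log2 signal was 0.52, against 0.30 expected for probe sets of like signal, and a variance 3.13 times that trend did not pass (adjusted p = 0.946, F test on limma's variance trend).

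Dlx1, its neighbour on the chromosome, gave 53.7, 39.2, 36.7, 56.1 and 62.2 in the same samples, a mean of 49.6 ± 11.1 (SD, n = 5). Every sample lay above the background level and none above the strict level. The excess was 1.28 ± 0.20 (adjusted p = 4.81e-07, limma). Replicate 3 was the lowest sample for both Dlx1 and Dlx2, while the highest was replicate 5 for Dlx1 and replicate 1 for Dlx2, so the pair did not keep 1 order over the samples. Their centred log2 signals differed by 0.34 on average over the 5 samples. The antisense gene Dlx1as, which overlaps Dlx1 in the RefSeq table, had a probe set of its own at 28.5 ± 10.4 (SD, n = 5) that was not called (excess 0.42, adjusted p = 0.116, limma).

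Dlx3, the member of the family nearest the lower tip of the arch and also a gene of surface ectoderm, was measured by 2 probe sets that differed. Probe set 1450475_at gave 37.9, 80.1, 66.5, 64.7 and 51.4, all above the background level (mean 60.1 ± 16.05, SD, n = 5). Its excess was 1.54 ± 0.20 (adjusted p = 3.04e-08, limma). Probe set 1422037_at gave 2.12, 1.36, 8.08, 3.51 and 1.59, all below the level (excess -2.92, adjusted p = 1, limma). The call for Dlx3 thus comes from 1 of its 2 probe sets. Such disagreement was common, as 1879 of the 3607 called genes with several probe sets (52.1%) also had a probe set that was not called. Dlx4, next to Dlx3, gave 1.48 ± 0.50 (SD, n = 5) and was not called.

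Dlx5 and Dlx6, the pair that specifies lower jaw identity, were not called. Dlx5 gave 27.5, 15.5, 19.95, 20.01 and 1.20, with replicates 1 and 3 above the level of their array and the others below. Replicates 1 to 4 straddled the level, and replicate 5 lay far beneath it. The excess was -0.80 ± 0.56 (adjusted p = 1, limma), and without replicate 5 it was 0.08 (adjusted p = 0.714), still not called. Dlx6 gave 8.52, 12.6, 11.3, 1.87 and 10.46, below the level in all 5 samples (excess -1.42 ± 0.57, adjusted p = 1, limma). Replicate 4 was the low sample for Dlx6, and replicate 5 for Dlx5, so the low values of this pair fell in different isolates. Dlx6os2, a noncoding gene that overlaps Dlx6 in the RefSeq table, gave 1.90 ± 2.58 (SD, n = 5) and was not called.

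**Figure D2:**
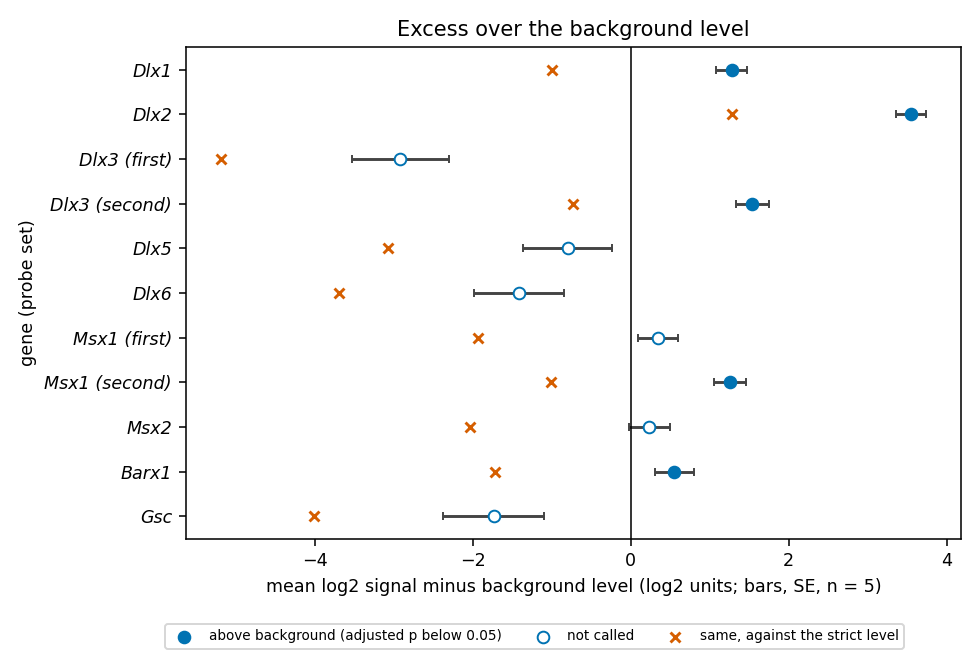
Mean log2 signal minus the background level for each probe set (bars, SE, n = 5), with filled circles for probe sets above background, open circles for the others and crosses for the distance to the strict level. The crosses lie left of 0 for all probe sets but that of Dlx2, at 1.28. For Dlx3 the first probe set is 1422037_at and the second 1450475_at, and for Msx1 they are 1417127_at and 1448601_s_at.

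Msx1, a BMP-responsive repressor of arch mesenchyme, was called through 1 of its 2 probe sets. Probe set 1448601_s_at gave 68.7, 45.9, 36.1, 43.7 and 50.7 (mean 49.0 ± 12.2, SD, n = 5), above the level in all samples, with an excess of 1.26 ± 0.21 (adjusted p = 1.39e-06, limma). Probe set 1417127_at gave 15.9, 28.8, 20.3, 26.03 and 43.2, above the level in 4 of 5 samples, and was not called (excess 0.34 ± 0.25, adjusted p = 0.183, limma). Replicate 1 was the highest sample by the former and the lowest by the latter, so the 2 probe sets do not give 1 order of the samples. The name of the called probe set ends in _s_at, a suffix Affymetrix gives to probe sets that can match more than 1 transcript. When plain _at probe sets alone were fitted, Msx1 was not called.

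Msx2, which overlaps Msx1 in much of the arch, gave 27.9, 20.2, 21.7, 33.4 and 17.8 (mean 24.2 ± 6.35, SD, n = 5). It lay above the level in 4 of 5 samples, but by little, and was not called (excess 0.23 ± 0.26, adjusted p = 0.352, limma). With the 90th percentile of the background as the level it was (excess 0.57, adjusted p = 0.0333, limma), as 1 of 6 members, against 56.8% of all genes. Msx3, the third Msx gene of the mouse and known from the dorsal neural tube, gave 409, 397, 266, 381 and 318 and lay above the strict level in every sample. It is not a member and is named after its value was seen.

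Barx1, a gene of proximal arch mesenchyme, gave 36.9, 21.4, 43.8, 17.7 and 35.2, a mean of 31.0 ± 11.02 (SD, n = 5). Replicate 4 lay below the level of its array and the other 4 above. The excess of 0.55 ± 0.25 passed narrowly (adjusted p = 0.0341, limma). It did not pass without replicate 1 (adjusted p = 0.127), without replicate 3 (0.166) or without replicate 5 (0.0618), or when the variance trend and the robust option were both dropped (0.0781). Gsc, a homeobox gene of lower jaw mesenchyme, gave 9.44, 10.53, 4.57, 1.21 and 14.2. It was below the level in all 5 samples (excess -1.74 ± 0.64, adjusted p = 1, limma), with replicate 4 again the lowest.

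The spread between samples was tested for the 7 member probe sets with a mean above the level, and the samples were then compared over the 5 called ones. Of these 7, 0 passed an F test of the variance against the trend fitted by limma (after Benjamini-Hochberg adjustment over all probe sets tested), and 0 had an unadjusted p under 0.05. Of 12633 probe sets tested 29 passed (0.23%), and 673 had an unadjusted p under 0.05. The probe sets of Dlx5, Dlx6 and Gsc and 1422037_at of Dlx3 lay below the level on average and were not tested. Between samples they ranged 23.0-fold, 6.75-fold, 11.8-fold and 5.92-fold, in that order. Their lowest signals were 1.20 to 1.87, near the floor of 1, so these folds say little about spread. The median of the centred log2 signals over the 5 called probe sets was 0.33 in replicate 1, -0.11 in replicate 2, -0.40 in replicate 3, 0.15 in replicate 4 and 0.08 in replicate 5. Over all 11227 called probe sets it stayed between -0.01 and 0.03, but arrays scaled to 1 mean hold the median of so many near 0. That range is therefore no measure of how far a median of 5 probe sets can move. For the 33 called genes of the patterning list described below, the median was 0.30, 0.15, -0.19, -0.24 and -0.12 in replicates 1 to 5. Dlx1, Dlx2 and Msx1 (by its called probe set) were lowest in replicate 3, which holds the lowest value of 21.6% of all called probe sets. Dlx3 and Barx1 went another way there, at 0.19 and 0.58, so replicate 3 was not low for every member.

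**Figure D3:**
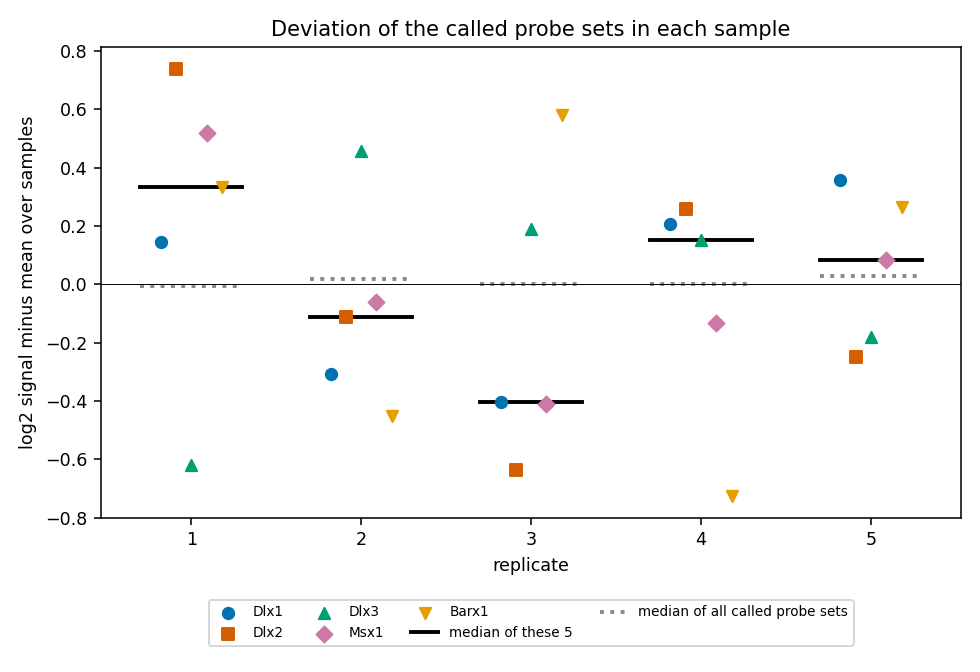
Log2 signal minus its mean over samples for the 5 called probe sets in each replicate, with their median (black bar) and the median of all called probe sets (dotted bar). Replicate 3 has Dlx1, Dlx2 and Msx1 at -0.40 or below and Barx1 at 0.58.

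Markers of the tissues in the piece were read beside these values, where the share of all genes called was 53.5%. Of 11 measured markers of arch crest mesenchyme 9 were above background, among them Prrx1, Twist1 and Pdgfra, and the median deviation of these 9 was 0.42, -0.01, -0.19, -0.20 and -0.05 in replicates 1 to 5. Both medians, of the members and of the crest markers, were thus highest in replicate 1. The crest median was nearly the same in replicates 3 and 4, where the median of the members was -0.40 and 0.15. In replicate 4 the called members were split, with Dlx1 at 0.21, Dlx2 at 0.26, Dlx3 at 0.15, Msx1 at -0.13 and Barx1 at -0.73. The summed signal of the 11 crest markers ran from 5354 in replicate 4 to 6631 in replicate 1. Crabp1 alone gave 2807 and 2840 in these samples. Such sums, here and below, take in markers that were not called and are weighted to the brightest genes. Surface ectoderm gave 5 of 7, with a summed signal from 787 (replicate 3) to 1096 (replicate 4). That highest sum came from Esrp1, at 627 in replicate 4 and 263 to 319 elsewhere, while Trp63 (96.9) and Perp (119) were lowest there, and the median deviation of the 5 called markers was also lowest in replicate 4, at -0.22. Pharyngeal endoderm gave 4 of 7, from 638 (replicate 3) to 785 (replicate 4). The 4 called were Epcam, Krt8, Krt18 and Cldn6. The transcription factors Foxa2 (adjusted p = 0.0519, limma), Pax9 (0.607) and Nkx2-1 were not called, so these counts do not settle whether endoderm was detected. All 6 neuron markers were called, and their sum ran from 3027 in replicate 4 to 5525 in replicate 3. Replicate 3 was the sample in which Dlx1, Dlx2 and Msx1 (by its called probe set 1448601_s_at) were lowest. By 1417127_at, Msx1 was lowest in replicate 1. The median deviation of the neuron markers was 0.33 there and 0.30 in replicate 5, where Dlx1 was highest and the median of the members was 0.08. Cardiac muscle gave 4 of 7 markers, with a sum from 320.4 in replicate 3 to 475 in replicate 5 and a median deviation of -0.39 in replicate 3. Endothelium gave 4 of 6, from 632 in replicate 1 to 853 in replicate 4, and red cells 4 of 5, from 8418 in replicate 4 to 16825 in replicate 5. The part of these tissues in the members' signals was not tested.

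Several other tissues transcribe the same homeobox genes at this stage. Forebrain interneuron progenitors use Dlx1, Dlx2, Dlx5 and Dlx6, and 0 of their 4 measured markers (Gad1, Gad2, Gsx2 and Six3) were called, with a summed signal of 36.5 to 88.0. The dorsal neural tube uses Msx1 and Msx2, and 2 of 6 markers were called, Pax3 (683 ± 86.4, SD, n = 5) and Zic1 (750 ± 138). Wnt1 at 4.54 ± 4.23 and Lmx1a at 11.6 ± 6.52 were not called. Msx3, not on this list but known from the dorsal neural tube, gave 266 to 409, above the strict level in every sample. Limb buds gave 2 of 10, Sall4 and Tbx5, while the distal limb genes Hoxd11, Hoxd12, Hoxd13, Hoxa11 and Hoxa13 lay at means of 8.38 or less. The median deviation of Sall4 and Tbx5 was 0.53, 0.60, -0.96, 0.13 and -0.29 in replicates 1 to 5, so they were lowest in replicate 3, as the median of the members was, and highest in replicate 2, where that median was -0.11. Otic and olfactory placodes gave 2 of 7, Ebf2 and Oc90 (52.3 ± 13.9, SD, n = 5). Pax3 and Zic1 are also transcribed in crest or somites, and whether Sall4 and Tbx5 marked limb bud in this piece was not tested. The called cardiac markers, like Sall4 and Tbx5, had their lowest median deviation in replicate 3 (-0.39). The part of the neural tube or limb bud in the members' signals was not tested.

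Genes that act with the Dlx and Msx factors in the arches were counted as a list of 65, of which 54 were measured by a probe set with 1 gene. Of these 33 (61.1%) were above background, against 53.5% of all genes, with a median excess of 1.01. At the strict level 17 of the 54 were called, against 29.4% of all genes. Edn1, the endothelin ligand upstream of Dlx5 and Dlx6, gave 14.1, 27.3, 19.7, 31.3 and 27.5 and was not called (excess 0.20, adjusted p = 0.414, limma). Ednra, its receptor, was not analysed here. The processing enzymes of Edn1, Furin (203 ± 40.4) and Ece1 (133 ± 61.0), and Mef2c (210.0 ± 26.03), which relays the signal to Dlx5 and Dlx6, were above background. At the strict level Furin and Mef2c were called and Ece1 was not. On the same list Gna11 (76.9 ± 23.1) and Plcb3 (170 ± 38.7) were above background, and Gnaq (4.24 ± 3.68) was not called. Hand2, a target of Dlx5 and Dlx6, gave 18.3, 10.9, 1.36, 6.33 and 4.31 and was not called, with replicate 1 at the level of its array and the others below.

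Genes of the BMP and FGF pathways lay on both sides of the level. Bmp4, an inducer of Msx genes, gave 47.9, 43.7, 32.5, 39.7 and 32.4, above the level in every sample (excess 0.95 ± 0.22, adjusted p = 0.000139, limma). The receptor Bmpr1a (739 ± 82.9), the mediators Smad1 (429 ± 154) and Smad5 (175 ± 46.0) and the ligand Fgf9 (38.7 ± 9.83) were called, while the ligands Bmp2 (23.9 ± 14.9) and Bmp7 (25.8 ± 10.3) and the antagonist Nog (4.75 ± 5.98) were not called. The ectodermal ligand Fgf8 gave between 0.65 and 1.56 and was not called. Of the FGF receptors on the list, Fgfr2 gave 840.4 ± 161 and Fgfr1 gave 34.1 ± 10.95. Both were above background, but Fgfr1 was not called at the strict level. Notch2, which acts against lower jaw identity with its ligand Jag1 (43.0 ± 11.8), had the largest excess of the list (1639 ± 362, excess 6.33 ± 0.15).

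Prrx1 (1063 ± 216), Twist1 (566 ± 85.5) and Sox9 (392 ± 117) mark arch mesenchyme and its cartilage, and Nr2f1 (559 ± 93.3), Nr2f2 (709 ± 306) and Meis2 (655 ± 151) are transcribed in crest and upper arch cells. Foxc2 (358 ± 129) and Lhx8 (323 ± 25.9) complete the 12 called genes with the largest excess. Lhx8, which marks the mesenchyme around the mouth, kept within 294 and 352 over the samples, whereas Lhx6, its partner there, gave 9.24 ± 7.22 and was not called. Hoxa2, the gene that sets the second arch apart from the first, gave 96.8, 88.6, 88.8, 93.7 and 68.8, above the level in all samples (excess 2.12 ± 0.18, adjusted p = 4.47e-12, limma). Pou3f3, a gene of the upper arch (7.76 ± 6.73), and Six2 (9.61 ± 5.42) and Eya1 (11.4 ± 4.74), which act in head mesenchyme, were not called. Of these genes Furin, Ece1, Mef2c, Gna11, Plcb3, Gnaq, Smad5, Fgf9, Fgfr1, Bmp2, Bmp7 and Nog were named after their values were seen. So were Dlx4, Dlx1as, Jag1, Lhx6, Pou3f3, Six2 and Eya1.

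**Figure D4:**
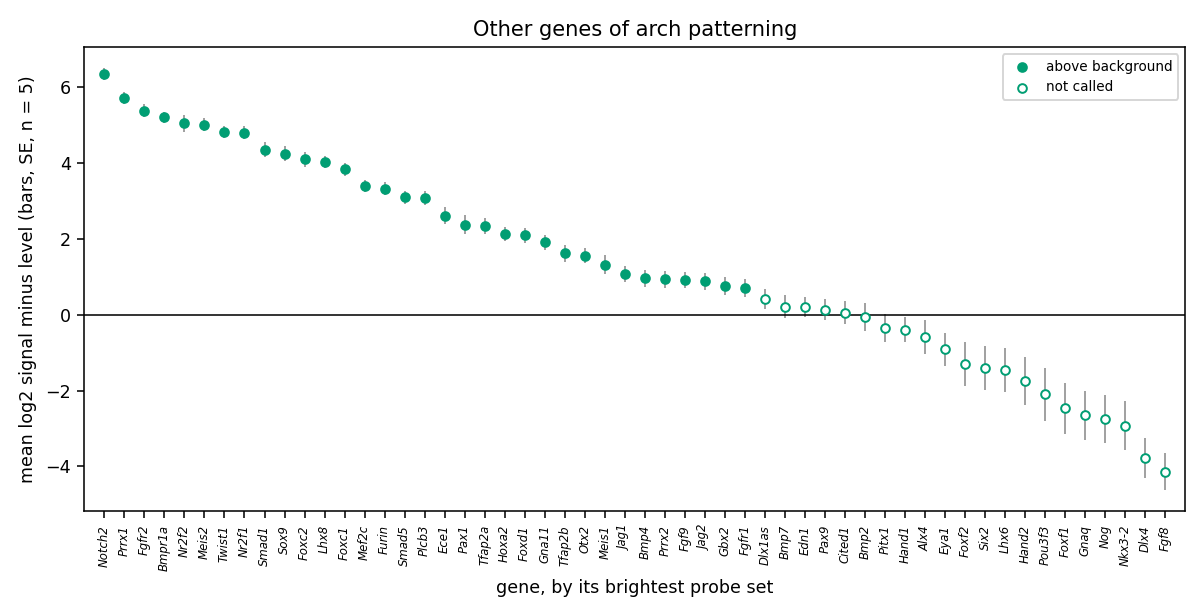
Mean log2 signal minus the background level (bars, SE, n = 5) for the 54 measured genes of the patterning list, in order of excess, with filled circles for the 33 above background. Notch2 stands at 6.33 and Fgf8 at -4.13.

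Finally, the genes whose values over the 5 samples lay closest to a member were taken, for the 3 called members that varied most. The measure was the mean absolute difference of centred log2 signals, over 6623 called genes. Nearest to Dlx2 were Hspa2 (0.09), Sall2 (0.09) and Emc10 (0.10). Dlx3 had Ell2 (0.04), Dnajc28 (0.06) and Ints13 (0.09), and Barx1 had Zfp975 (0.06), Gdap1 (0.13) and Atp2b2 (0.14). None of the 9 belongs to the patterning list, and with 5 samples many genes can lie this close.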

How the data were processed

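Total RNA of 5 wild-type E10.5 arch isolates was amplified and labelled, and the product was hybridised to Affymetrix Mouse Genome 430A arrays. The deposited values were intensity values, 1 linear signal per probe set, made by the authors with GCOS per the submitters' processing notes; algorithm and settings are not given in the sources used here. Means after trimming 2% from each end lay at 150.0 in every array. No present or absent calls were used. Control probe sets (64 of 22690) were left out. Symbols were updated through Entrez identifiers with RefSeq (GRCm38.p6), which matched 20351 of 20380 probe sets with 1 gene; 691 had several genes and 1555 none.

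Signals below 1 were set to 1 before log2 conversion. Detection was an intercept fit in limma 3.58.1 (R 4.3.3; lmFit, eBayes with trend and robust options). Genes were called if any probe set was, and valued by their brightest. The background name pattern also took in 2 probe sets of Tradd, a widely expressed gene. On simulated data for 22626 probe sets, detection recovered 49.5% of probe sets seeded 0.5 log2 units above the level, 99.5% at 1 and 100% at 2. Of the calls 0.136% were false. The simulation used 1 known level for all arrays and counted as false only probe sets set at or below it. The 0.136% is thus no error rate of the calls in the data, where the level itself was estimated. In 12633 simulated probe sets the variance test found 58% of those given an SD 3 times that of the trend, and 98% at 6 times. Named genes were the members, the 12 called list genes of largest excess and 6 fixed genes, of which Ednra had no value. Members and lists were chosen with earlier results of these data known. Between any 2 arrays at most 1 probe set had an identical signal. The number of arrays limits the precision.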

Additional observations from a re-analysis of the deposited data

Results flagged for a closer look

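Of 29 values tested for 1 sample far from the other 4, 3 stood out, and chance alone gives about 1 in 20. Dlx5 had replicate 5 at 1.20 against 15.5 to 27.5 elsewhere, a gap of 0.817 of the whole log2 range. Dlx6 had replicate 4 at 1.87 against 8.52 to 12.6 (0.795). Neither probe set was called, and Dlx6 lay below the background level in all 5 samples. Hoxa2 had replicate 5 at 68.8 against 88.6 to 96.8 (0.741), well above the level in every sample.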

How the results depend on the processing

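The choice of background level changed most calls. At the strict level 1 member gene (Dlx2), 1 member probe set and 17 list genes were called. The shares over all features were 29.4% of genes and 25.6% of probe sets. The excess at that level turned to -0.99 for Dlx1, -0.73 for Dlx3, -1.01 for Msx1 and -1.72 for Barx1. With the 99th percentile 1 member gene and 1 member probe set were called, and Barx1 stood at -0.57. With the 90th percentile 7 member probe sets of 6 genes were called. Leaving out 1 replicate at a time gave 4 or 5 member genes and 32 to 34 list genes. Quantile normalization, log2(signal + 16), a fit with neither trend nor robust option, plain _at probe sets alone, the probe sets brighter than the median and the background without Tradd (chosen after the data were seen) gave 4 or 5 member genes. The variability count was 0 under all 12 alternatives run. The members' deviation in replicate 1 ranged from 0.20 to 0.42 and in replicate 3 from -0.42 to -0.28 over 7 alternatives, of which those leaving out a replicate were added after the data were seen. No paired analysis was possible because all samples form 1 group. Signals near the level limit what can be said of Msx2, Dlx5 and Barx1.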
